A study of Mus musculus with 15 samples.

Results

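Cholesterol synthesis, uptake and control genes were examined in the tibialis anterior muscle of mice lacking Mtm1, with and without tamoxifen. The 32 genes were chosen by name for their place in the pathway and not by a measured value, but earlier results of these data were known. Ensembl identifiers matched them to 32 of the 30672 genes in the count table. They fall into 4 groups by role: 8 enzymes of the mevalonate and isoprenoid steps, 11 enzymes that make squalene and shape the sterol rings, 8 genes of sterol sensing and transcriptional control, and 5 genes of cholesterol movement and storage.

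Cells build cholesterol from acetyl-CoA through mevalonate, farnesyl diphosphate, squalene and lanosterol, and the isoprenoids made on the way also feed protein prenylation, dolichol and coenzyme Q. When membrane sterol falls, SCAP carries the sterol regulatory element-binding proteins (SREBPs) out of the endoplasmic reticulum and they turn on the synthesis genes, whereas INSIG proteins hold them back and the oxysterol-sensing liver X receptors turn on export genes. Tamoxifen, a selective oestrogen receptor modulator, also binds sterol enzymes such as EBP and DHCR7, and this is why the pathway is of interest in treated mice.

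RNA was extracted from the tibialis anterior of 15 male mice of the 129Pas strain, all 7 weeks old, and sequenced as TruSeq stranded mRNA libraries. The 4 groups were 4 wild-type mice (WT), 4 wild-type mice given tamoxifen (WT+TAM), 4 Mtm1-/y mice and 3 Mtm1-/y mice given tamoxifen (Mtm1-/y+TAM). Mtm1-/y males carry no intact copy of the X-linked gene for myotubularin, a phosphoinositide phosphatase, and are a model of X-linked myotubular myopathy. The dose, route and duration of tamoxifen, and what the other mice were given in its place, are not stated in the sources read here.

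Total counts per library lay between 18042558 and 45823277, and all 32 genes passed the filter on low counts among 15533 genes tested. Values are CPM, counts scaled by TMM factors to a library of 1000000, differences are log2 fold changes with the standard error (SE) of the fit, and a gene was called when its adjusted p from edgeR's quasi-likelihood test was under 0.05. The adjustment ran over all tested genes, and the p-values measure the spread between these mice alone. Mtm1 itself read 15.2, 15.3, 14.9 and 15.6 CPM in WT and 13.5, 16.9, 17 and 17.7 CPM in WT+TAM. It read 3.61, 3.63, 3.27 and 2.91 CPM in Mtm1-/y and 3.71, 3.04 and 3.7 CPM in Mtm1-/y+TAM, below every library labelled WT. Fast-fibre markers summed to at least 155000 CPM in every library, as is usual for this muscle. A pair of libraries stood apart. WT+TAM 1 had slow-fibre markers at 1380 CPM in sum against 68.3 to 123 CPM in the rest of its group. Its fibroblast markers summed to 3160 CPM against 737 to 1290 CPM, and its endothelial markers to 344 CPM against 573 to 650 CPM. The adipocyte markers Adipoq and Plin1 read 12 and 11.2 CPM there, against 0.0381 to 1.43 and 0.152 to 0.917 CPM. Its whole adipocyte list, at 995 CPM in sum, lay within the range of the others (627 to 1030 CPM). Mtm1-/y 1 had fibroblast markers at 348 CPM in sum against 841 to 1400 CPM in the rest of its group. Its red blood cell markers summed to 14.9 CPM against 54.6 to 66.5 CPM, and its fast-fibre markers to 155000 CPM against 176000 to 206000 CPM. The adipocyte list of Mtm1-/y 1 stood at 2320 CPM in sum against 436 to 1250 CPM in the rest of its group. Most of that sum was Plin4 (1370 CPM) and Pnpla2 (934 CPM), lipid-droplet genes. Of the 9 adipocyte markers tested between Mtm1-/y and WT, Plin4, Pnpla2 and Cidea were called higher, and the other 6 had log2 fold changes below 0 (list median -0.84). The defining markers Adipoq and Plin1 were not called, although all 4 Mtm1-/y mice lay below every WT mouse for both. In Mtm1-/y 1 they read 0.654 and 0.418 CPM. Endothelial markers were lower in Mtm1-/y, with 7 of 8 called lower, against 14.9% of all genes. They summed to 291 to 405 CPM against 513 to 671 CPM in WT. In whole muscle, fewer cells of a type and less RNA per cell cannot be told apart, and the part of these marker differences in the results that follow was not tested.

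In untreated WT muscle the pathway was expressed over a wide range. Levels per length (RPKM, the CPM divided by the kilobases of merged exon) were highest for Insig2, which retains SREBPs in the endoplasmic reticulum, at 18.2 ± 1.38 RPKM (SD, n = 4). Hmgcs1, the cytosolic HMG-CoA synthase, followed at 9.97 ± 0.788 RPKM. Nr1h2, one of the liver X receptors, stood at 9.87 ± 0.936 RPKM. Merged exons join every annotated exon of a gene, used in muscle or not, so the order between genes is approximate. The range of Insig2 over the mice did not touch that of Hmgcs1, while from Hmgcs1 through Nr1h2, Fdft1 and Srebf1 down to Pmvk each gene overlapped with the next in the order. Idi1, the isopentenyl diphosphate isomerase, was the lowest at 0.0894 ± 0.0383 RPKM, from 3 to 16 counts per library over all mice. Sqle (0.347 ± 0.0703 RPKM) and Fdps (0.377 ± 0.0345 RPKM) stood just above it, with Soat1 and Lss between them and the rest. The Fdps value is uncertain because 26.7% of its exon bases also belong to Gm43738 on the same strand. Srebf1 was at 8.07 ± 1.09 RPKM and Srebf2, whose product is the main driver of the cholesterol arm, at 3.31 ± 0.248 RPKM.

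**Figure D1:**
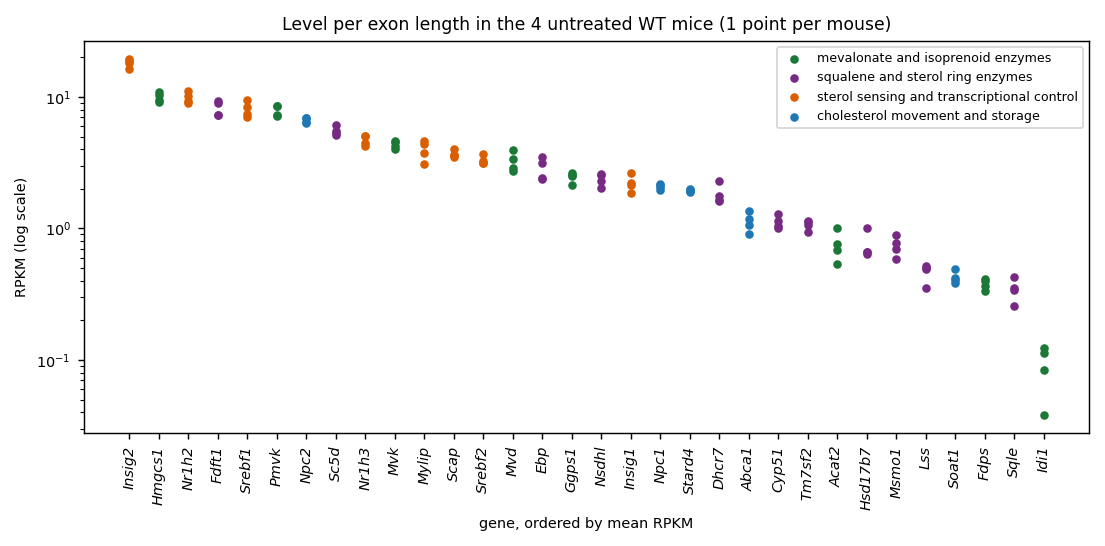
Level per exon length (RPKM, log scale) of the 32 genes in the 4 untreated WT mice, a point per mouse, coloured by role and ordered by mean. Insig2 lies highest at 18.2 RPKM and Idi1 lowest at 0.0894 RPKM, and neighbouring genes mostly overlap.

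The promoters of the genes were read from RefSeq (GRCm38.p6, 250 bases before to 50 after each start), which held 36 promoters of 27 of the 32 genes. They were searched on both strands for a sterol regulatory element core, written TCACNCCAC, through which SREBPs bind, and for the NF-Y box CCAAT, which often stands beside it. The core was present in 1 of the 36 promoters (2.78%), that of Hmgcs1, against 1.24% of all 32851 promoters. The NF-Y box was present in 23 of the 36 (63.9%), from 22 genes, against 37.4% of all promoters, and no match of one motif overlapped one of the other. Such a match is a description of the letters, and its absence from a window says only that those letters are not there. The 250 bases before the start are shown for Hmgcs1, as the promoter with the core, at chr13:119690101-119690350 (+ strand). Those of Sc5d (chr9:42264301-42264550, - strand), Mvd (chr8:122443423-122443672, - strand) and Ebp (chrX:8193513-8193762, - strand) are shown as a gene lower in the mutant, a gene higher in it and the tamoxifen-binding isomerase, chosen after their values were seen. Capitals mark the core or an NF-Y box, read on either strand.
Hmgcs1: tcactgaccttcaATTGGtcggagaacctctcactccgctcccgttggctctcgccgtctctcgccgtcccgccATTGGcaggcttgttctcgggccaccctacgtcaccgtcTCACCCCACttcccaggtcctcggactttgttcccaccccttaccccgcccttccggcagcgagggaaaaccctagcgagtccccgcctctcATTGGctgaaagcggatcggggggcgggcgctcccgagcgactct
Sc5d: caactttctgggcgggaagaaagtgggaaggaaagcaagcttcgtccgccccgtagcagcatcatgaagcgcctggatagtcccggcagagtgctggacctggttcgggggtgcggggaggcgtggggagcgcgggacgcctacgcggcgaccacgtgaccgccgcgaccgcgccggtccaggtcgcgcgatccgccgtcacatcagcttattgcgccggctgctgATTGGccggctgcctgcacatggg
Mvd: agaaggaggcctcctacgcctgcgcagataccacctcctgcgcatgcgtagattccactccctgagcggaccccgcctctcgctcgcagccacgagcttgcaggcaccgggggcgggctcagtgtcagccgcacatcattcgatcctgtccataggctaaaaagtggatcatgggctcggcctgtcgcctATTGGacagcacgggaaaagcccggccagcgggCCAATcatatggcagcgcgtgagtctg
Ebp: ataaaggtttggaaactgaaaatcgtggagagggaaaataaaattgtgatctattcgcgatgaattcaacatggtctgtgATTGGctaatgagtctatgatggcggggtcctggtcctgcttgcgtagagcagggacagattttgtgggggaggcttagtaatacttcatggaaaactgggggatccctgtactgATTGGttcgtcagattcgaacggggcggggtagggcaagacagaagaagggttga

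The difference that loss of Mtm1 made in untreated muscle was examined first. Transcripts of 6 genes were lower in Mtm1-/y than in WT, namely Hmgcs1, Pmvk, Fdps, Sc5d, Dhcr7 and Stard4, and those of 4 were higher, namely Mvd, Scap, Nr1h2 and Mylip. The lower ones include enzymes near both ends of the route, and 3 of the 4 higher ones belong to sensing and control. In all, 10 of the 32 genes were called, where 30.4% of all tested genes were. The 6 lower calls stand against 14.9% of all genes called lower and the 4 higher calls against 15.5% called higher. The values of the untreated groups did not overlap for 10 of the genes, against 30.5% of all genes. The median log2 fold change over the 32 genes was -0.05, against 5e-04 over all genes. The number of calls therefore stood near the background of this comparison.

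Among the mevalonate and isoprenoid enzymes, 7 of 8 had log2 fold changes below 0, and 4 were called (3 lower and 1 higher). Of all genes 30.4% were called, 14.9% lower and 15.5% higher. The median over the 8 was -0.32, against 5e-04 over all genes. Hmgcs1 (chr13:119690379-119708260), which condenses acetoacetyl-CoA and acetyl-CoA, read 49.9, 47.6, 43.9 and 41.8 CPM in WT and 33.5, 29.6, 40.1 and 36 CPM in Mtm1-/y. All 4 mutants lay below all WT mice. The log2 fold change was -0.40 (SE 0.10 and adjusted p = 0.00672). An antisense transcript, Gm48342, overlaps 12.1% of its exon bases, and whether reads were counted by strand is not stated in those sources.

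Pmvk (chr3:89454541-89469013), the phosphomevalonate kinase, read 12.6, 14.6, 14.5 and 12.2 CPM in WT and 7.74, 10.5, 11.2 and 10.9 CPM in Mtm1-/y. The groups did not overlap, and its log2 fold change was -0.41 (SE 0.11 and adjusted p = 0.0124). Fdps (chr3:89093588-89101959), the farnesyl diphosphate synthase, read 1.52, 1.74, 1.42 and 1.67 CPM in WT and 1.02, 1.21, 0.858 and 0.918 CPM in Mtm1-/y. Again every mutant lay below every WT mouse, at a log2 fold change of -0.67 (SE 0.20 and adjusted p = 0.0208). This call was the less secure of the group, as the adjusted p rose to 0.0551 without WT 2, 0.05 without WT 4, 0.0545 without Mtm1-/y 3 and 0.0514 without Mtm1-/y 4.

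Mvd (chr8:122433601-122443422), the mevalonate diphosphate decarboxylase, was the exception among these enzymes. It read 6.32, 5.13, 7.3 and 5.4 CPM in WT and 22.2, 13.1, 7.62 and 10.4 CPM in Mtm1-/y. All mutants lay above all WT mice, and Mtm1-/y 1 was far above the other mutants. Its log2 fold change of 1.15 (SE 0.30, 2.21-fold, adjusted p = 0.0107) was the only call of the 32 genes past a log2 fold change of 1, and without Mtm1-/y 1 it was 0.78 (adjusted p = 0.0286). Acat2, Mvk, Idi1 and Ggps1, which supply acetoacetyl-CoA, phosphorylate mevalonate, isomerise isopentenyl diphosphate and make geranylgeranyl diphosphate, were not called, with log2 fold changes between -0.59 (Idi1) and -0.14 (Mvk).

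Of the 11 squalene and sterol ring enzymes, 2 were called, against 30.4% of all genes. Both were late in the route and lower, where 14.9% of all genes were called lower. Sc5d (chr9:42251595-42264256), the sterol desaturase of the penultimate stage, read 29.9, 26.7, 25.8 and 25.2 CPM in WT. It read 12.9, 16, 19.9 and 16.5 CPM in Mtm1-/y. The highest mutant thus lay well below the lowest WT mouse, and its log2 fold change of -0.72 (SE 0.11, 95% interval -0.96 to -0.48, adjusted p = 0.000331) had the smallest adjusted p among the 32 genes. Dhcr7 (chr7:143823145-143848410), the reductase that completes cholesterol, read 13.4, 10.3, 9.42 and 9.68 CPM in WT and 4.65, 7.34, 7.37 and 5.95 CPM in Mtm1-/y. The groups did not overlap, and its log2 fold change was -0.76 (SE 0.15 and adjusted p = 0.00194).

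Ebp, the isomerase that acts just before Sc5d, differed little. It read 8.06, 5.53, 7.25 and 5.57 CPM in WT and 6.85, 6.73, 6.51 and 6.67 CPM in Mtm1-/y. The mutants lay within the WT range, and the log2 fold change was 0.02 (SE 0.13, 95% interval -0.26 to 0.29, adjusted p = 0.935). The other 8 uncalled ring enzymes, Fdft1, Sqle, Lss, Cyp51, Tm7sf2, Msmo1, Nsdhl and Hsd17b7, had log2 fold changes from -0.48 (Sqle, the squalene epoxidase) to 0.25 (Tm7sf2, a sterol reductase). The values of Tm7sf2 did not overlap between the groups, at 4.11 to 4.98 CPM in WT and 5.07 to 6.38 CPM in Mtm1-/y, but it missed the threshold (adjusted p = 0.224), and it shares 12.1% of its exon bases with Vps51 on the same strand.

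Fdft1, the squalene synthase, turned on a single library. It read 31.1, 31, 38 and 39.3 CPM in WT and 68.7, 26.4, 24.1 and 22.8 CPM in Mtm1-/y. Mtm1-/y 1 was the highest of the 15 mice and the other mutants were below every WT mouse. With all libraries the log2 fold change was 0.03 (SE 0.30 and adjusted p = 0.954), and without Mtm1-/y 1 it was -0.51 (adjusted p = 0.0158). Ctsb overlaps 18.3% of the exon bases of Fdft1 on the opposite strand.

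**Figure D2:**
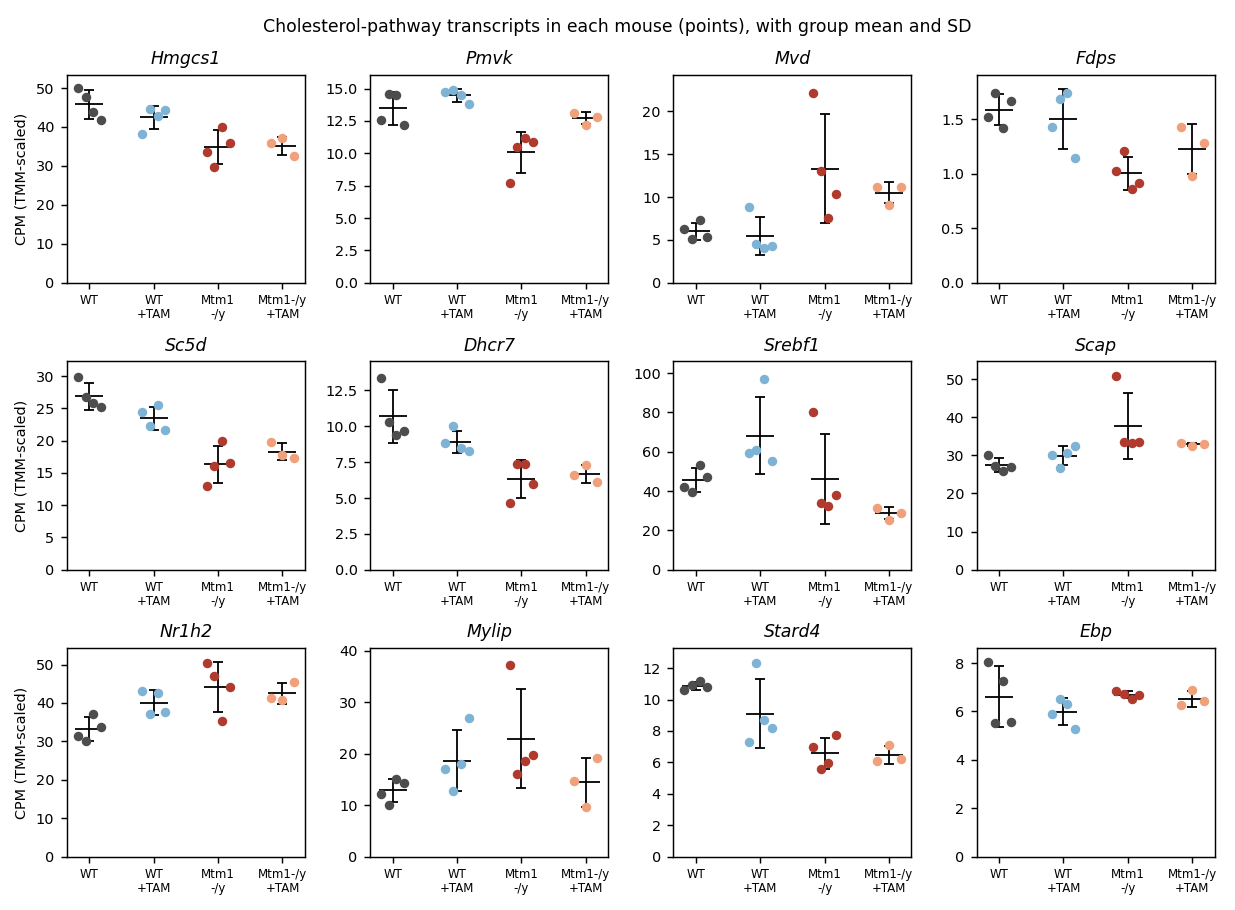
TMM-scaled CPM of 12 genes in each mouse, by group (points), with the group mean (bar) and SD (whiskers) and every axis starting at 0. Hmgcs1, Pmvk, Fdps, Sc5d, Dhcr7 and Stard4 lie lower in Mtm1-/y than in WT without overlap, and Ebp stays between 5.26 and 8.06 CPM in all 15 mice.

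In sterol sensing and control, 3 of 8 genes were called in the untreated mutant, all of them higher. Of all genes 30.4% were called and 15.5% called higher. Scap (chr9:110333288-110384950), the sterol-sensing escort of SREBPs, read 30, 27.1, 25.8 and 26.9 CPM in WT and 50.8, 33.4, 33.3 and 33.4 CPM in Mtm1-/y. No mutant fell into the WT range. The log2 fold change was 0.46 (SE 0.12 and adjusted p = 0.0112), and without Mtm1-/y 1 it was 0.28 (adjusted p = 0.0134). A transcript of unknown status, 5830462I19Rik, overlaps 13.2% of the Scap exon bases on the opposite strand.

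Nr1h2 (chr7:44549616-44553951), the widely expressed liver X receptor, read 31.3, 30.2, 37.2 and 33.8 CPM in WT and 50.4, 46.9, 35.3 and 44.1 CPM in Mtm1-/y. Mtm1-/y 3 lay within the WT range and the others above it. Its log2 fold change was 0.42 (SE 0.11 and adjusted p = 0.00906). Mylip (chr13:45389742-45412022), a liver X receptor target whose ubiquitin ligase removes lipoprotein receptors, read 12.2, 10, 15 and 14.3 CPM in WT. It read 37.2, 16, 18.6 and 19.8 CPM in Mtm1-/y, above all WT mice, at a log2 fold change of 0.83 (SE 0.29 and adjusted p = 0.0423). The size of the Mylip difference rested on Mtm1-/y 1, without which it was 0.50 (adjusted p = 0.148). The Mylip call was also lost, with adjusted p from 0.0519 to 0.111, without any 1 of the 4 WT libraries, without WT+TAM 3 and without Mtm1-/y+TAM 1. In that same Mtm1-/y 1 library Plin4 and Pnpla2 were at their highest among these 8 mice. Adipoq and Plin1, which define adipocytes, lay below every WT mouse in all 4 Mtm1-/y mice. The part of cell content in the Mylip value was not tested.

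The SREBP genes were not called in untreated mutants. Srebf1, which drives mainly fatty acid synthesis, read 41.8, 39.6, 53.4 and 47 CPM in WT and 80.4, 34.1, 32.2 and 38.1 CPM in Mtm1-/y. Mtm1-/y 1 lay above all WT mice and the other mutants below all of them, and the log2 fold change was 0.03 (SE 0.26 and adjusted p = 0.954). Without Mtm1-/y 1 it was -0.38 (adjusted p = 0.11). Srebf2 read 22.6, 26.4, 23.6 and 22.7 CPM in WT and 29.5, 28.5, 21.5 and 30.6 CPM in Mtm1-/y. All but Mtm1-/y 3 were above the WT mice, but the difference of 0.21 (SE 0.14, adjusted p = 0.259) stayed within the error. Insig1, an SREBP target and brake, had a log2 fold change of -0.46 (SE 0.21 and adjusted p = 0.12), and without Mtm1-/y 1 it was lower at -0.68 (adjusted p = 0.0192). Insig2 and Nr1h3 had log2 fold changes of 0.03 and 0.08 and were not called.

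Among genes of cholesterol movement and storage, Stard4, a carrier that moves sterol between membranes in the cytosol, was lower in the mutant. It read 10.6, 10.9, 11.2 and 10.8 CPM in WT and 6.98, 5.6, 5.94 and 7.77 CPM in Mtm1-/y. The WT mice lay close together and the groups were far from overlapping. The log2 fold change was -0.73 (SE 0.15 and adjusted p = 0.0022). Abca1, the exporter of cholesterol to lipoproteins, had the largest log2 fold change of the 32 genes at 1.30 (SE 0.50), but it was not called (adjusted p = 0.0649). It ranged from 9.47 to 14 CPM in WT, and read 71.7, 12, 18.1 and 12.8 CPM in Mtm1-/y. A single mouse, Mtm1-/y 1, carried this difference, which was 0.29 (adjusted p = 0.376) without that library. DESeq2 called Abca1 with all libraries included (1.32, adjusted p = 0.0348). Without Mtm1-/y 2 or Mtm1-/y 4, Abca1 passed the threshold, at 1.55 with adjusted p of 0.0335 and 0.0344. Npc1, Npc2 and Soat1, which release cholesterol from lysosomes or esterify it, were not called, with log2 fold changes of 0.30, 0.16 and -0.22.

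**Figure D3:**
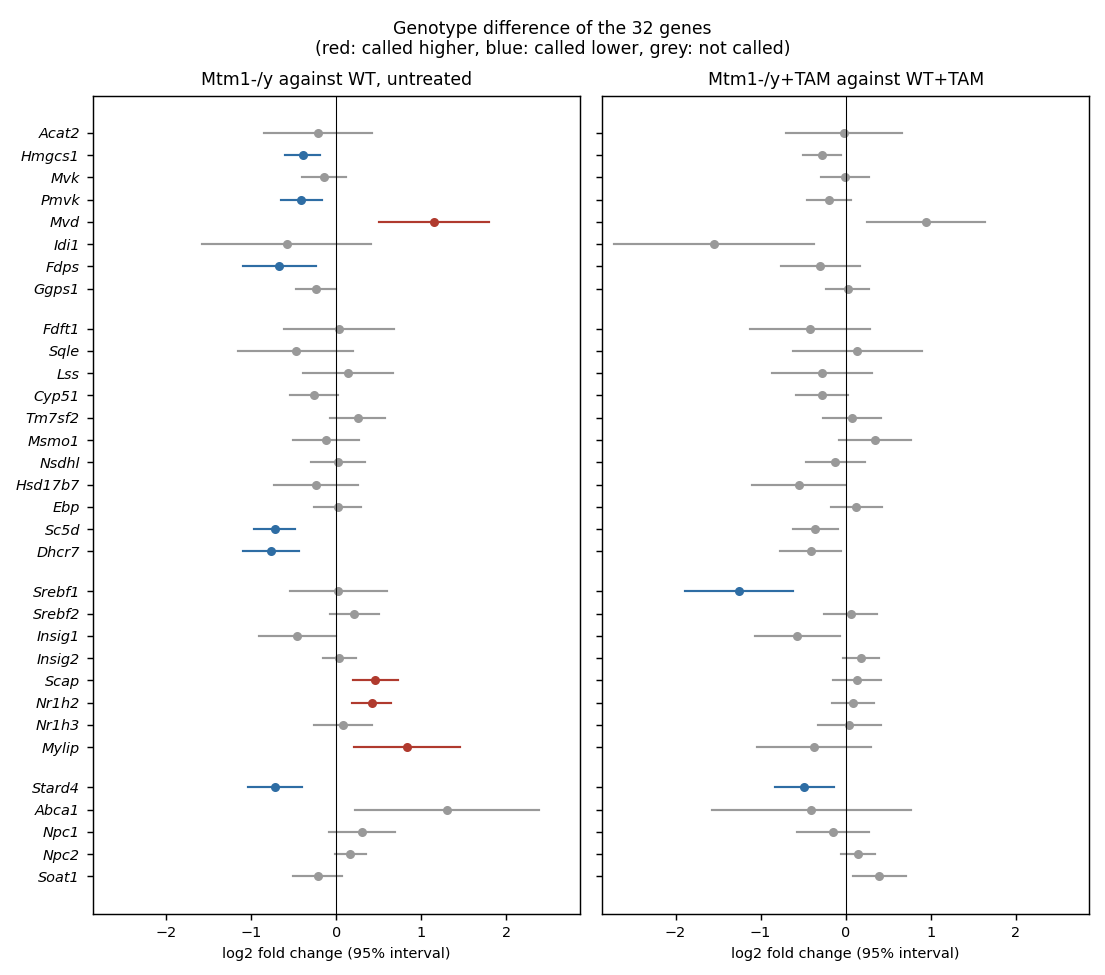
Log2 fold change with its 95% interval for the 32 genes, in rows by role, for Mtm1-/y against WT (left) and Mtm1-/y+TAM against WT+TAM (right). Called genes are red (higher) or blue (lower), 10 on the left and 2 on the right, and the other genes are grey.

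The genotype comparison was repeated between the treated groups, which share no library with the untreated ones. Only Srebf1 and Stard4 were called, both lower in Mtm1-/y+TAM than in WT+TAM, which is 2 of 32 against 20.1% of all genes called and 9.46% called lower. This count was 7 without Mtm1-/y 1, where 26.8% of all genes were called, and 5 without WT+TAM 1 (21.5% of all genes). It was 4 without Mtm1-/y 3, with DESeq2 and with limma-voom, where 20.8%, 23.8% and 19.7% of all genes were called. The values of the treated groups did not overlap for 10 of the 32 genes (2 higher and 8 lower), against 31.6% of all genes. The median log2 fold change was -0.13 over the 32 genes and -0.02 over all genes. Of the 10 genes called in untreated mice, 9 (90%) had the same direction under tamoxifen, against 92.4% of all 4727 genes called in untreated mice. However, 1 of the 10 (10%), Stard4, was also called under tamoxifen, against 45.3% of those 4727 genes. The 1 became 4 without Mtm1-/y 1 (Dhcr7, Mvd, Sc5d and Stard4, against 53.1%) and 3 with DESeq2 (Mvd, Sc5d and Stard4, against 50.6%). It became 3 without WT+TAM 1 (Hmgcs1, Mvd and Stard4, against 46.8%), and 0 without any 1 of the 4 WT libraries, of the other 3 WT+TAM libraries or of the 3 Mtm1-/y+TAM libraries. The treated comparison had 1 mouse fewer, and a call missed here does not show that the genotype difference was changed by the drug.

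Srebf1 (chr11:60199089-60222581) read 59.2, 61.1, 97.2 and 55.3 CPM in WT+TAM and 31.6, 25.5 and 28.7 CPM in Mtm1-/y+TAM. The treated mutants were the lowest of all 15 mice and the treated WT mice were above every untreated WT mouse. The log2 fold change was -1.26 (SE 0.30, 95% interval -1.89 to -0.62, adjusted p = 0.00963). Leaving out any 1 library kept it between -1.35 and -1.04 and called. Stard4 read 7.27, 12.3, 8.68 and 8.16 CPM in WT+TAM and 6.09, 7.09 and 6.22 CPM in Mtm1-/y+TAM. The groups lay close without overlapping, and the log2 fold change of -0.49 (SE 0.16 and adjusted p = 0.0473) kept its call in 4 of the 15 fits that left out 1 library. Without WT+TAM 2, its highest mouse, it was -0.31 (adjusted p = 0.132).

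The enzymes lower in untreated mutants had log2 fold changes nearer 0 under tamoxifen. For none of them did the interaction test given further on pass the threshold. They were picked by their calls in untreated mice, so a smaller value in other mice is not by itself an effect of tamoxifen. Hmgcs1 read 38.2, 44.7, 42.8 and 44.3 CPM in WT+TAM and 35.8, 37.1 and 32.5 CPM in Mtm1-/y+TAM, with a log2 fold change of -0.28 (SE 0.11 and adjusted p = 0.0775). Pmvk read 14.7, 14.9, 14.5 and 13.8 CPM in WT+TAM and 13.1, 12.2 and 12.8 CPM in Mtm1-/y+TAM, at -0.19 (SE 0.12, adjusted p = 0.294). Fdps read 1.43, 1.68, 1.74 and 1.14 CPM in WT+TAM and 1.43, 0.979 and 1.28 CPM in Mtm1-/y+TAM, at -0.30 (SE 0.22, adjusted p = 0.372). Hmgcs1 and Pmvk still did not overlap between the groups, whereas the ranges of Fdps did.

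Sc5d read 24.4, 22.3, 25.5 and 21.6 CPM in WT+TAM and 19.8, 17.8 and 17.3 CPM in Mtm1-/y+TAM, with a log2 fold change of -0.36 (SE 0.12 and adjusted p = 0.052). Dhcr7 read 8.82, 10, 8.46 and 8.31 CPM in WT+TAM and 6.62, 7.33 and 6.11 CPM in Mtm1-/y+TAM, at -0.41 (SE 0.17, adjusted p = 0.0978). For both of these last enzymes of the route, all treated mutants lay below all treated WT mice. Both passed the threshold without Mtm1-/y 1, which bears on the treated comparison through the shared estimate of spread: Sc5d at -0.36 (adjusted p = 0.0151) and Dhcr7 at -0.41 (adjusted p = 0.0425). Sc5d passed it in 8 of 23 alternatives, among them Mtm1-/y 3 left out (adjusted p = 0.0317), RLE factors (0.0471), upper-quartile factors (0.0476), the stricter count filter (0.0413), DESeq2 (0.0329) and limma-voom (0.0485).

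Mvd read 8.82, 4.53, 4.08 and 4.35 CPM in WT+TAM and 11.2, 9.08 and 11.2 CPM in Mtm1-/y+TAM, with a log2 fold change of 0.95 (SE 0.32 and adjusted p = 0.0524). The treated mutants lay above all treated WT mice, of which WT+TAM 1 was the highest. Without WT+TAM 1 it was 1.28 (adjusted p = 0.00803), without Mtm1-/y 1 it was 0.95 (adjusted p = 0.0126), and without Mtm1-/y 3 it was 0.96 (adjusted p = 0.0304). Soat1, which esterifies cholesterol for storage, did not overlap either, at 0.39 (SE 0.15, adjusted p = 0.0684), and without WT+TAM 1 was higher at 0.50 (adjusted p = 0.0246). Idi1 had -1.55 (SE 0.55, adjusted p = 0.0593), from at most 16 counts in a library and with 9.22% of its exon bases shared with Gm48574 on the opposite strand, and Insig1 had -0.57 (SE 0.24, adjusted p = 0.105). Idi1 passed the threshold without WT+TAM 3 (-1.82, adjusted p = 0.0382) or Mtm1-/y 4 (-1.55, adjusted p = 0.0461), and Insig1 without Mtm1-/y 1 (-0.57, adjusted p = 0.0483) or Mtm1-/y 3 (-0.56, adjusted p = 0.042). Hmgcs1 passed it without WT+TAM 1 (-0.32, adjusted p = 0.0456) and Fdft1 without Mtm1-/y 1 (-0.42, adjusted p = 0.0408).

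The control genes called higher in untreated mutants were not called under tamoxifen. Scap read 30.1, 26.6, 30.7 and 32.4 CPM in WT+TAM and 33.2, 32.4 and 33.1 CPM in Mtm1-/y+TAM, at 0.13 (SE 0.13, adjusted p = 0.519). Nr1h2 read 43, 37.1, 42.7 and 37.6 CPM in WT+TAM and 41.2, 40.7 and 45.5 CPM in Mtm1-/y+TAM, at 0.08 (SE 0.12, adjusted p = 0.668). Mylip read 17, 12.8, 18 and 26.9 CPM in WT+TAM and 14.6, 9.66 and 19.1 CPM in Mtm1-/y+TAM, at -0.37 (SE 0.31, adjusted p = 0.441). The treated groups did not separate for these 3 genes, and the sign of Mylip was the only one of the 10 to turn.

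Tamoxifen itself was then compared with no tamoxifen within each genotype. In Mtm1-/y muscle, 0 of the 32 genes were called by edgeR, by DESeq2 or by limma-voom, where edgeR called 0.0129% of all genes. At an unadjusted p under 0.05 there were 5 (2 higher and 3 lower), against 5.54% of all genes, and the smallest adjusted p of the 32 was 0.855. The groups did not overlap for 5 genes, against 5.72% of all genes. In WT muscle, 0 were called by any of the 3 tools, where edgeR called 0.309% of all genes. At an unadjusted p under 0.05 there were 3, against 11.3% of all genes, the groups did not overlap for 2, against 8.08%, and the smallest adjusted p was 0.257. Averaged over both genotypes, again 0 were called by any of the 3 tools, against 0.206% of all genes by edgeR. For this average, 2 genes (Pmvk and Msmo1) had an unadjusted p under 0.05, against 6.64% of all genes. The median log2 fold change over the 32 genes was -0.01 in Mtm1-/y, 0.02 in WT and -0.05 for the average. The comparisons within each genotype share their untreated groups with the genotype comparison above, so the directions of the same gene in them are not independent.

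Ebp, whose protein binds tamoxifen, read 5.88, 6.52, 6.29 and 5.26 CPM in WT+TAM and 6.25, 6.88 and 6.42 CPM in Mtm1-/y+TAM. These values lay in or close to the range of the untreated mice of the same genotype. Its log2 fold change was -0.14 in WT (SE 0.13, 95% interval -0.42 to 0.14) and -0.04 in Mtm1-/y (SE 0.14, 95% interval -0.34 to 0.26). Averaged over the genotypes it was -0.09 (95% interval -0.29 to 0.11, adjusted p = 0.967). Dhcr7, another tamoxifen-binding enzyme, had log2 fold changes of -0.27 in WT (SE 0.15, adjusted p = 0.541) and 0.08 in Mtm1-/y (SE 0.17, adjusted p = 0.946). Sc5d, between them in the route, had -0.20 in WT (SE 0.11, adjusted p = 0.542) and 0.17 in Mtm1-/y (SE 0.12, adjusted p = 0.876).

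Values of treated and untreated WT mice did not overlap for 2 of the 32 genes, against 8.08% of all genes. In Mtm1-/y they did not overlap for 5 of the 32, a larger share than the 5.72% of all genes. None of these differences passed the adjusted threshold. In WT, Msmo1, the sterol methyl oxidase, ranged from 3.58 to 5.44 CPM untreated and from 2.75 to 3.39 CPM with tamoxifen, at -0.55 (SE 0.19, adjusted p = 0.257). Srebf1 was above all untreated WT mice in every treated WT mouse, at 0.59 (SE 0.26, adjusted p = 0.425). In Mtm1-/y, Soat1 ranged from 3.32 to 3.99 CPM untreated and from 4.55 to 5.21 CPM treated, at 0.45 (SE 0.14, adjusted p = 0.855). Pmvk had 0.33 and Srebf1 -0.69 in Mtm1-/y, with Nsdhl at -0.21 and Scap at -0.20, all with separate ranges and adjusted p of 0.855 to 0.878. The Srebf1 value was -0.29 and the Scap value -0.02 when Mtm1-/y 1 was left out. Srebf2, the other SREBP gene, read 20.8, 32.9, 30.6 and 25.2 CPM in WT+TAM and 29.9, 29.7 and 25.9 CPM in Mtm1-/y+TAM, ranges that overlapped with the untreated mice of each genotype.

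**Figure D4:**
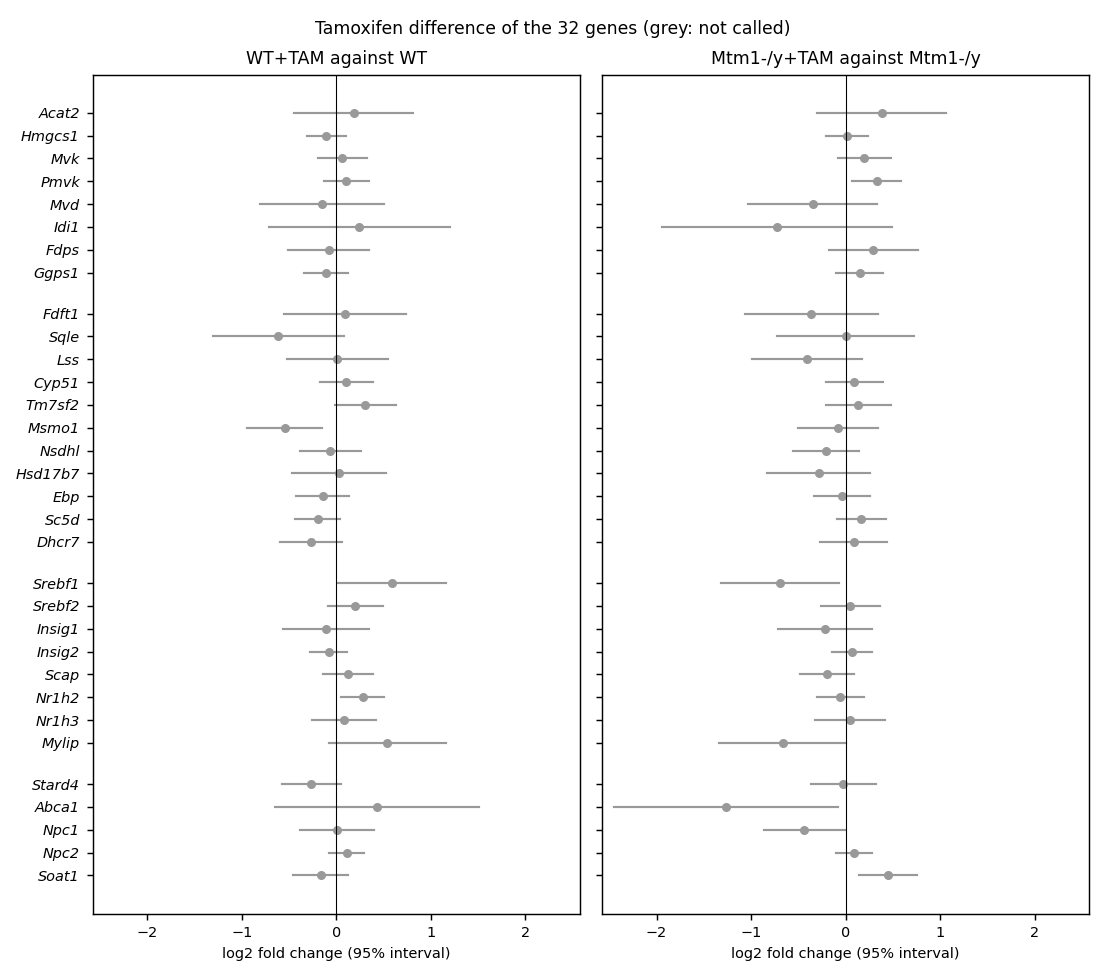
Log2 fold change with its 95% interval for the 32 genes, in rows by role, for WT+TAM against WT (left) and Mtm1-/y+TAM against Mtm1-/y (right). All points are grey because 0 of the 32 genes were called in either genotype, and Srebf1 is at 0.59 on the left and -0.69 on the right.

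The difference between the tamoxifen effects in the genotypes was tested as an interaction. None of the 32 genes was called by edgeR, DESeq2 or limma-voom, where edgeR called 0% of all genes, and 5 had an unadjusted p under 0.05, against 10.6% of all genes. Srebf1 had the smallest adjusted p of the 32, at 0.365, for a difference of -1.28 between the log2 fold changes (SE 0.39, 95% interval -2.13 to -0.44). Without Mtm1-/y 1 it was -0.88 (adjusted p = 0.354). Soat1 had 0.61 (SE 0.20, adjusted p = 0.379), Mylip -1.21 (SE 0.43, adjusted p = 0.392), Abca1 -1.70 (SE 0.74, adjusted p = 0.452) and Sc5d 0.36 (SE 0.17, adjusted p = 0.463). For Abca1 the difference was -0.70 (adjusted p = 0.571) without Mtm1-/y 1. Ebp had 0.11 (SE 0.19, adjusted p = 0.866).

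**Figure D5:**
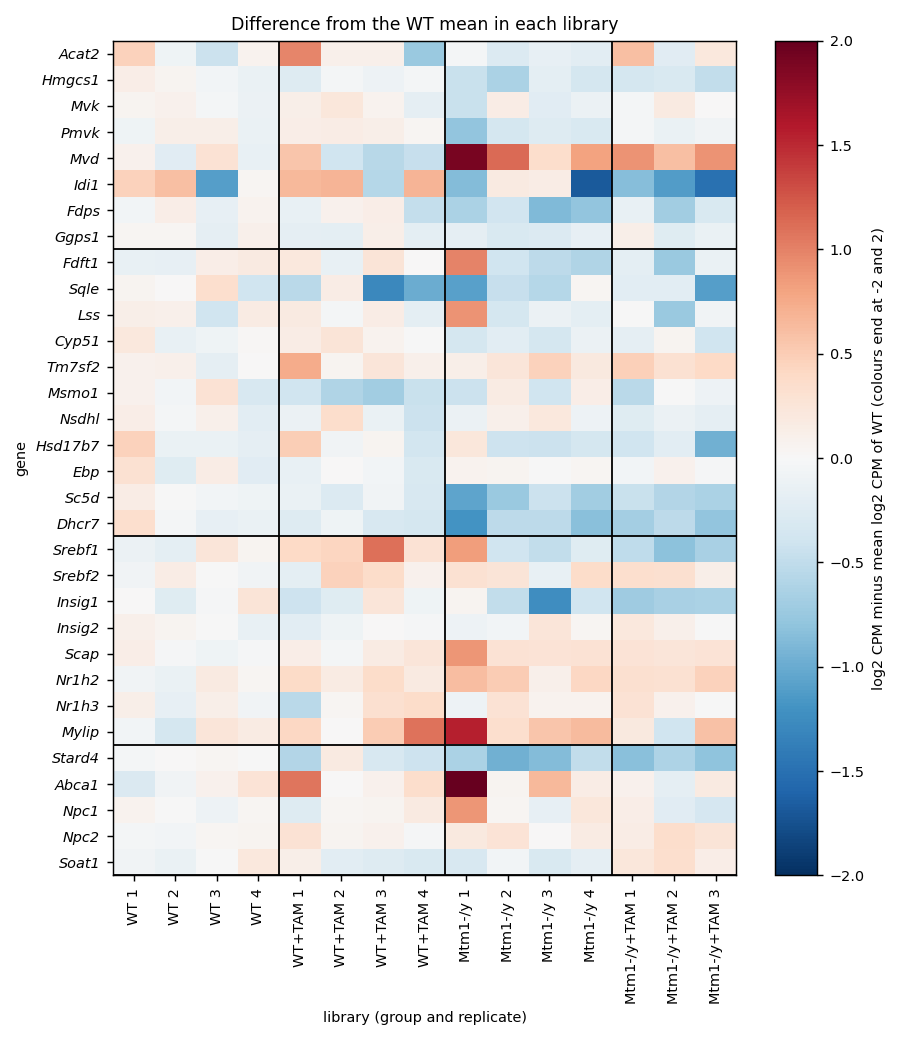
Log2 CPM minus the mean log2 CPM of WT for the 32 genes (rows, by role) in each of the 15 libraries (columns, by group), with colours that end at -2 and 2. Sc5d, Dhcr7 and Stard4 are blue across the mutants and Mvd is red, and Mtm1-/y 1 is the highest of the 15 libraries for 8 genes and the lowest for 5.

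The libraries differed in how they carried these patterns. Mtm1-/y 1 was the highest of the 15 mice for 8 of the 32 genes and the lowest for 5, whereas WT+TAM 1, the other library that stood apart, was the highest for 3 and the lowest for 3. Over the mevalonate and isoprenoid enzymes, the median difference from the WT mean was -0.35, -0.25, -0.20 and -0.22 (log2) in the 4 Mtm1-/y mice, and -0.03, -0.21 and -0.10 in the Mtm1-/y+TAM mice. In the WT mice themselves it ran from -0.09 to 0.07. All 4 untreated mutants were below all WT mice in this median. It uses the same libraries and genes as the fit above, with the WT mice as its reference, and so adds no separate evidence. In the WT+TAM mice the median was 0.12, 0.07, 0.08 and -0.18, a range that overlapped with that of the treated mutants. With Mtm1-/y 1 and WT+TAM 1 both left out, an alternative chosen after seeing the data, 11 genes were called in untreated mice (3 higher and 8 lower). Of all 15359 genes tested in that fit, 5257 were called. Of the 11 genes, 9 were among the 10 called with all libraries. Under tamoxifen 7 were then called in place of 2, while the share of all genes called rose from 20.1% to 29.9%.

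Genes that work beside the 32 were followed in 6 further lists, 70 genes in all. Of 11 genes for SREBP processing and sterol-regulated degradation, 3 were called in untreated mutants, against 30.4% of all genes. Rnf145, a sterol-responsive ubiquitin ligase, was higher (0.98, adjusted p = 0.00341), while Rnf139, a related ligase, was lower (-0.31, adjusted p = 0.0356). The median of this list was 0.01.

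The fatty acid arm of the SREBP targets gave 7 calls of 13, with 6 lower and 1 higher and a median of -0.36, where 30.4% of all genes were called, 14.9% lower and 15.5% higher. Scd2, a stearoyl-CoA desaturase, fell by 1.01 on the log2 scale (adjusted p = 0.00444). Me1, the cytosolic malic enzyme that supplies NADPH, fell by 0.93 (adjusted p = 0.000955). Fads2, a polyunsaturated fatty acid desaturase, fell by 0.74 (adjusted p = 0.0422). The member called higher was Acaca, the acetyl-CoA carboxylase (0.73, adjusted p = 0.0455), named here after its value was seen.

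Of 12 enzymes that use isoprenoids, 5 were called, 3 higher and 2 lower, with a median of 0.01, against the same 30.4% of all genes. Nus1, a subunit of the dolichol-making transferase, was lower (-0.62, adjusted p = 0.00498) and Pdss2, of coenzyme Q side-chain synthesis, was lower too (-0.46, adjusted p = 0.0317). Fntb, the beta subunit of farnesyltransferase, was higher (0.54, adjusted p = 0.0011). Of 18 sterol transporters tested from a list of 19, 6 were called, 3 in each direction, with a median of 0.05, again beside 30.4% of all genes. Gramd1b, which takes sterol from the plasma membrane to the endoplasmic reticulum, was higher (1.81, adjusted p = 0.000382). Cav1, the caveola protein, was lower (-1.01, adjusted p = 0.000266), as was Scarb1, a receptor for high-density lipoprotein (-0.74, adjusted p = 0.00912). Endothelial markers, lower in the same comparison by a list median of -0.74, move with Cav1 and Scarb1, and their part in these values was not tested.

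Of 6 oxysterol and bile acid enzymes tested from a list of 8, 3 were called against 30.4% of all genes, and the median was 0.63. Acox2, a peroxisomal oxidase of bile acid side chains, was higher (3.39, adjusted p = 0.00182), Cyp27a1, the sterol hydroxylase of mitochondria, was higher (0.50, adjusted p = 0.0466), and Cyp39a1, an oxysterol hydroxylase, was lower (-0.53, adjusted p = 0.00216). Of 7 proteins that bind tamoxifen or assist sterol enzymes, Cyb5r3, the cytochrome b5 reductase, was called higher (2.82-fold, adjusted p = 1.24e-05), and the list median was -0.08, with 15.5% of all genes called higher. Between treated and untreated mice of either genotype, 0 genes of these 6 lists were called by edgeR. At an unadjusted p under 0.05 the 6 lists held 0 to 3 genes each in Mtm1-/y, where 5.54% of all genes passed, and 1 to 2 genes each in WT, where 11.3% did.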

How the data were processed

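Gene-level read counts of tibialis anterior muscle were analysed in 15 mice of 4 groups, assigned from the labels alone. The deposited table holds raw counts per Ensembl gene and library, which the authors did not normalize. The tools in their processing notes are STAR 2.5.3a, HTSeq 0.6.1p1, cutadapt 1.10 and Bowtie2 2.2.8, with mm10 and GRCm38. Neither annotation release nor strand setting is given in the sources used here. All 30672 identifiers matched GENCODE M21, which gave symbols, GRCm38 coordinates and exon lengths.

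Counts were fitted with edgeR 4.0.16 in R 4.3.3 (filterByExpr with a minimum count of 10, TMM factors, glmQLFit with robust = TRUE on 4 group means, glmQLFTest). The fit used all 15 libraries (11 residual degrees of freedom, common biological coefficient of variation 20.8%), and p-values were adjusted by Benjamini-Hochberg over 15533 genes. The 6 contrasts were genotype without and with tamoxifen, tamoxifen in each genotype, their average, and the interaction. A count was worth 0.0224 to 0.053 CPM. The scripts were tested on simulated counts.

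The 32 genes and the other lists were chosen with earlier results of these data known. All 32 were named, with values per mouse for those called in any contrast and for Ebp, Dhcr7, Srebf1, Srebf2 and Mtm1. From each further list up to 3 called genes with the largest absolute log2 fold change were named, except 1 that is not reported here. Alternatives were RLE and upper-quartile factors, no filter and a stricter filter, an absolute log2 fold change over 1, DESeq2 1.42.0, limma-voom 3.58.1, the replicate number as a block, and leaving out each library.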

Additional observations from a re-analysis of the deposited data

Results flagged for a closer look

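In groups of 4 mice, a library was singled out when its gap to the nearest other mouse, divided by the range of the group, exceeded Dixon's critical value at the 95% level. This happened in 12 of 96 groups, where chance gives about 1 in 20, or 4.8, if the groups are independent. They are not, because the genes share their libraries and a single unusual library can give several flags. The excess over 4.8 was therefore not tested. Of the 12, 6 were in Mtm1-/y 1, each as the highest of its group: Fdft1 at 68.7 CPM, Lss at 9.33 CPM, Hsd17b7 at 4.34 CPM, Srebf1 at 80.4 CPM, Scap at 50.8 CPM and Abca1 at 71.7 CPM. In WT+TAM 3, Srebf1 at 97.2 CPM and Ggps1 at 12.6 CPM were far above the rest of the group, and Idi1 at 0.193 CPM was far below it. In WT+TAM 1, Mvd at 8.82 CPM was far above its group. In WT 1, Hsd17b7 at 5.11 CPM lay far above its group, and in WT 3, Lss at 3.8 CPM lay far below.

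The tamoxifen difference of Srebf1 had opposite signs in the genotypes, higher in every treated WT mouse than in any untreated WT mouse and lower in every treated mutant than in any untreated mutant. The interaction was -1.28 on the log2 scale (SE 0.39, edgeR adjusted p = 0.365), so by this test over all genes the difference did not pass the threshold.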

How the results depend on the processing

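In untreated mice, Hmgcs1, Pmvk, Mvd, Sc5d, Dhcr7, Scap, Nr1h2 and Stard4 were called in 23 of 23 alternatives, Fdps in 18 and Mylip in 13. Fdps was lost without the count filter (adjusted p = 0.0853), and Mylip with upper-quartile factors (0.0514) and without the filter (0.11). The number called was 10, where 4727 of all genes were called. It was 8 to 11 with a library left out, where 3693 to 5116 of all genes were called. It was 1 with an absolute log2 fold change over 1, for which no share of all genes was counted. Fdft1 (log2 fold change 0.03) ran from -0.51 to 0.20 with a library left out, turning to -0.51 without Mtm1-/y 1 and to -0.51 with WT+TAM 1 left out as well. Under tamoxifen, Srebf1 was called in 23 of 23 alternatives (adjusted p at most 0.05) and Stard4 in 9 of 23. There the number called was 2, where 20.1% of all genes were called. It was 1 without the filter (7.98% of all genes), 4 with DESeq2 (23.8%) and 4 with limma-voom (19.7%). With a library left out it was 1 to 7 (10.6% to 26.8%), and without Mtm1-/y 1 and WT+TAM 1 it was 7 (29.9%). At a log2 fold change beyond 1 in size it was 1. For tamoxifen and the interaction, 0 of the 32 genes were called in every alternative run.

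The same replicate numbers occur in all groups. Of 21 same-numbered pairs, 6 had a correlation of deviations over 0.1 (-0.11 to 0.31 in all), and 5 of 15 libraries were closest to their own number. Differently numbered pairs ran from -0.34 to 0.21. Whether a shared number links libraries was not tested, and the main fit treated the numbers as names. With the replicate number as a block, 10 of the 32 genes were called in untreated mice, where 4473 of all 15533 genes were. Under tamoxifen 3 were called, against 18% of all genes. There Mvd (adjusted p = 0.0255) and Hsd17b7 (0.0498) passed and Stard4 (0.0769) did not.

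Over all genes, DESeq2 called 298 against 48 with edgeR for tamoxifen in WT, 4 against 2 in Mtm1-/y, 119 against 32 for the average and 74 against 0 for the interaction. With 1 library left out these were 11 to 143, 0 to 5, 10 to 71 and 0 to 7, and with both libraries out 347, 7, 128 and 14. Genotype under tamoxifen gave 3121 calls, and 1656 to 4097 with 1 library left out. The cause was not tested. Depth limits Idi1 most, at 3 to 16 counts per library.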
